A study of Saccharomyces cerevisiae with 25 samples.

Results

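The genes described here are those that encode proteins of the small subunit of the cytosolic ribosome in the budding yeast Saccharomyces cerevisiae. They were chosen by name, as RPS followed by a number and, for duplicated genes, the letter A or B, which gave 56 of the 6650 named genes in the deposited table. Of these, 48 form 24 pairs of A and B paralogs and 8 are single copy (among them RPS2, RPS3, RPS12, RPS13, RPS15, RPS20 and RPS31). The cells grew in medium without phosphate for 15 to 360 min, with 1 library of total RNA every 15 min (24 libraries), against 1 library at 0 min from high phosphate medium. All libraries came from a BY4741 derivative, a haploid laboratory strain, that carried 2 changes: PHO84pr-YFP, a fluorescent reporter driven by the PHO84 promoter, and pho85 DAmP, an allele type that lowers the amount of messenger RNA of its gene. Pho85 is the cyclin-dependent kinase that holds the phosphate starvation programme off when phosphate is plentiful. Because the 0 min library carries the same alleles, the course compares times and media within 1 strain, and libraries of a strain with intact PHO85 or of a transfer into high phosphate medium were not analysed here.

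Ribosomal protein genes are transcribed by RNA polymerase II at high rates in growing yeast, and their messenger RNAs are a large part of the cell's total. They are known to be regulated together by the factors Rap1, Fhl1, Ifh1 and Sfp1 and by the nutrient-sensing TOR and protein kinase A pathways, with transcription and mRNA stability lowered when growth slows. Most of them exist as A and B paralogs left by an ancient genome duplication, and the proteins of a pair are nearly or fully identical.

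Values are log2 reads per 1000000 (log2 RPM) of the genes listed in a library, and a gene with fewer than 10 reads in a library is not listed there. The reads listed per library ran from 169769 to 4954493 in 20 deeper libraries and from 767 to 81208 in 5 shallow ones (45, 75, 90, 210 and 330 min), which list only their highest genes and were left out of the tests. The mating type a pheromone genes MFA1 and MFA2 were listed in 24 libraries each, at 648 to 3428 and 905 to 13046 RPM, while MF(ALPHA)1 was listed in 3 libraries at 8.51 RPM at most. Of the other genes of mating type alpha, STE3 was listed in 17 libraries at 19.98 to 64.96 RPM and SAG1 in 15 at 7.57 to 56.4 RPM. HIS3, LEU2, MET17 and URA3, which BY4741 lacks, were listed in no library, and PHO85 itself was listed in 4 libraries at 5.05 to 21.3 RPM.

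All 56 genes matched the R64 genome annotation, on 14 chromosomes. To show the regulatory sequence of genes that move together, the stretch from 400 to 101 bases before the start codon is printed for 6 of them, read 5′ to 3′ on the strand of the gene from R64. The first, RPS22A (chrX:75403-75702, minus strand), had the deepest fall, and RPS28A (chrXV:649108-649407, minus strand) the shallowest. RPS13 (chrIV:579058-579357, plus strand) is a single-copy gene and RPS16B (chrIV:307890-308189, minus strand) one of the 5 deepest falls. RPS27A (chrXI:158213-158512, plus strand) and RPS27B (chrVIII:148770-149069, minus strand) are the pair whose balance changed most. Capitals mark a Rap1-type motif (ACCCNNACA, in RPS13 and RPS16B) or a Fhl1-type motif (GACGC, in RPS22A and RPS28A), both searched on either strand, and the RPS27A and RPS27B windows hold neither.
RPS22A: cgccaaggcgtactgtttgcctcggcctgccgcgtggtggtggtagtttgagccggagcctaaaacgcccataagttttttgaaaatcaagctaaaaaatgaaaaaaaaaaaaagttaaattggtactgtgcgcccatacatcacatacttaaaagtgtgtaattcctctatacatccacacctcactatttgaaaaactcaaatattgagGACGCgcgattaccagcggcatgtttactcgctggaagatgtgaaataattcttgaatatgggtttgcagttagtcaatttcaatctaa
RPS28A: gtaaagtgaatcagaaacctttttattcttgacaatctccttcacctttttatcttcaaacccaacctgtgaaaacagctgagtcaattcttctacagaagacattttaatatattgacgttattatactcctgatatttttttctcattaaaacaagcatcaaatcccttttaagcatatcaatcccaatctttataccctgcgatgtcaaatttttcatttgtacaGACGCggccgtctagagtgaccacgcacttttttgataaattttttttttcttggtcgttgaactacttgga
RPS13: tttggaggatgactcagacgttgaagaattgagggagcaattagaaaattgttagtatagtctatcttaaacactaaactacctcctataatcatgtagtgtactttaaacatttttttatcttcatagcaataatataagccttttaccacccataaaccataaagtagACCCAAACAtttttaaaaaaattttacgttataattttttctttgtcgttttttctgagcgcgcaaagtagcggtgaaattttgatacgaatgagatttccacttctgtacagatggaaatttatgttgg
RPS16B: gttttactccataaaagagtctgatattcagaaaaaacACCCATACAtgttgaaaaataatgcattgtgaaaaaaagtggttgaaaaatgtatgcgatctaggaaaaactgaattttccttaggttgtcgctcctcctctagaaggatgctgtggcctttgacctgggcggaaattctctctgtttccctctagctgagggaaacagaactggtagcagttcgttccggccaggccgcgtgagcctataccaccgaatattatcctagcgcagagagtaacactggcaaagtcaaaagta
RPS27A: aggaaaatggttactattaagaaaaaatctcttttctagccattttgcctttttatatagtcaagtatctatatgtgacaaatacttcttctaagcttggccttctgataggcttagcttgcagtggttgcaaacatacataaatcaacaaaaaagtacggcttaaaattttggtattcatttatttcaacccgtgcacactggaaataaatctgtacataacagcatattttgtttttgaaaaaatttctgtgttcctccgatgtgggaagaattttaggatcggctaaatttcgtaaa
RPS27B: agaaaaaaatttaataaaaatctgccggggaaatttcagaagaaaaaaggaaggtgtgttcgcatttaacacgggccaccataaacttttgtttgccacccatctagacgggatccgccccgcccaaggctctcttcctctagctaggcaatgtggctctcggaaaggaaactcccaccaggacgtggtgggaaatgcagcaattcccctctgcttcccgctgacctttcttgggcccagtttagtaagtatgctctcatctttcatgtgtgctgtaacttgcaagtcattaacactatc

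The Rap1-type motif was in this window of 13 of the 56 small subunit genes (23.2%), of 39.5% of the large subunit genes and of 3.93% of 6001 promoters in all. The Fhl1-type motif was in 22 of the 56 (39.3%), against 20.8% of all promoters. A motif for Abf1, another general regulatory factor, was in 4 of the 56 (7.14%), against 15.8% of all promoters. The median change late in the course was -2.88 on the log2 scale for the 13 genes with the Rap1-type motif and -2.97 for the 42 tested genes without it, and it was -2.94 with and -2.97 without the Fhl1-type motif. These matches are descriptions of letters in a window, and binding was not measured.

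The read share of the small subunit genes stayed near its starting level to 135 min without phosphate, and then dropped between 150 and 225 min to a low level that lasted to the end of the course. Together they took 13.0% of the listed reads at 0 min in high phosphate medium (95% interval 12.97% to 13.03%, exact Clopper-Pearson, counting error only). In the deeper early libraries they took 11.3%, 12.6%, 11.5%, 12.8% and 11.97% at 15, 30, 60, 105 and 120 min. The share was 12.2% at 135 min, 11.0% at 150 min, 8.85% at 165 min, 5.41% at 180 min, 3.86% at 195 min, 1.82% at 225 min and 1.79% at 240 min. From 255 to 360 min the 7 deeper libraries ranged from 1.502% to 2.72% with a median of 1.79%, so that no late library came near an early one.

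**Figure D1:**
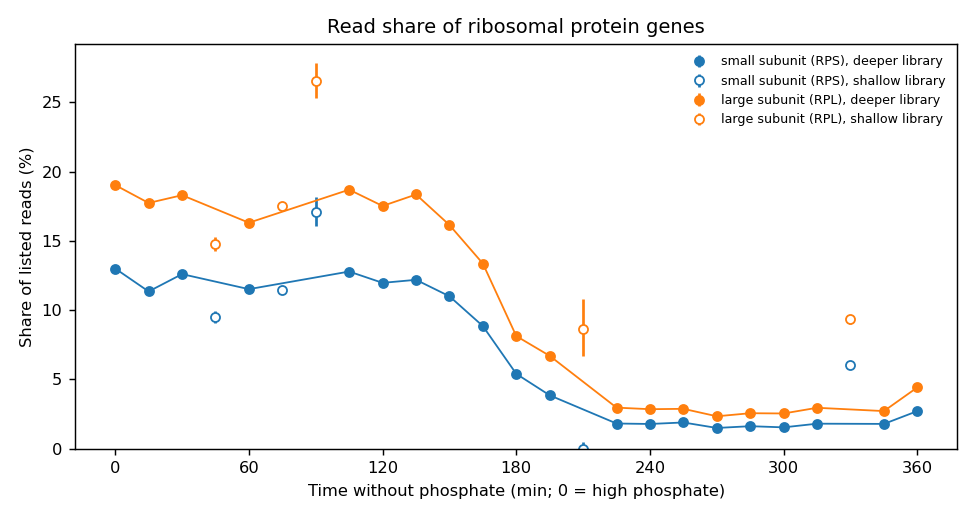
Share of the listed reads (%) taken by small subunit and large subunit genes against time without phosphate (min), with filled points for deeper and open points for shallow libraries and bars for exact 95% intervals. The small subunit share stays between 11.3% and 13.0% in deeper libraries to 120 min and lies between 1.502% and 2.72% in those from 255 min on.

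All 55 small subunit genes that could be tested were lower late (255 to 360 min, 7 deeper libraries) than early (15 to 120 min, 5 deeper libraries), by limma with Benjamini-Hochberg adjusted p of 0.000387 or less. Their median difference was -2.94 on the log2 scale, or 7.69-fold lower, with a range of -3.60 to -1.49. Among all 4733 genes tested, 6.97% were called lower in that comparison, and the median difference of all genes was 0.41. In each of the 55 genes every late value was below every early value. How often this held among all genes tested was not counted. As each time point is 1 library, these p-values measure the spread between libraries at neighbouring times, not between separate cultures. That spread was pooled over all windows of the fit, including the middle one (135 to 240 min), within which the levels fell. For RPS11A the SD was 0.047 early, 1.38 in the middle and 0.386 late, and the SE of late against early was 0.496. With only the early and late libraries in the fit, all 55 genes were still called lower. In such bulk samples, a smaller share of cells with an RNA and less of that RNA per cell cannot be told apart, and RPM gives shares of a library, not amounts per cell.

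Set against the 0 min library, all 55 were also lower late, with a median of -3.08, where 5.28% of all genes were called lower. Early against 0 min, limma called 0 of 55 lower and 0 higher, with 0 at an unadjusted p under 0.05 in either direction and a median of -0.12, and 0% of all genes were called lower. The 0 min group is 1 library whose spread was assumed equal to that of the windows. The SE of early against 0 min ran from 0.41 to 1.09 on the log2 scale over the 55 genes, so only a large difference was detectable. The loss of phosphate and the transfer itself cannot be told apart in these comparisons.

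In hourly blocks, the fall was called in the fourth hour. In hour 4 (195 to 240 min, 3 deeper libraries) all 55 genes were lower than in hour 3 (135 to 180 min, 4 deeper libraries), with a median of -2.06 and adjusted p up to 0.0119 by limma, against 4.86% of the 3931 genes tested. The decline in that step ran from -2.78 for RPS26B to -1.05 for RPS30A. Hour 2 against hour 1 gave 0 of 55 lower, with 0 at an unadjusted p under 0.05, a median of 0.10 and a background of 0.102%. Hour 3 against hour 2 gave 0 of 55 lower by limma, with 10 lower at an unadjusted p under 0.05 (113 of all 3931 genes), a median of -0.50, and 0% of all genes called lower. Hour 5 against hour 4 gave 0 lower, with 15 at an unadjusted p under 0.05 (143 of all 3931 genes), a median of -0.50, and 0% of all genes called lower. Hour 6 against hour 5 gave 0 lower and 0 higher, with 7 higher at an unadjusted p under 0.05 (223 of all 3931 genes), a median of 0.35, and 0.0509% of all genes called lower. In windows of 2 hours, 18 of 55 were lower in the middle (135 to 240 min) than early, against 2.13% of all genes, and 44 of 55 were lower late than in the middle, against 2.7%. The 7 middle libraries span the fall, and both counts depended on single libraries: the middle count ran from 1 to 55 and the late count from 12 to 54 as 1 library at a time was left out. The middle count was 55 without 135 or 150 min, 40 without 165 min, 1 without any of 30, 60, 105, 120, 180, 195, 225 and 240 min, 2 without 15 min, 5 without 255 min, 10 without 270 min, 11 without 285 min, and 9 without 300, 315 or 345 min. The late count was 13, 12 and 14 without 135, 150 and 165 min and 29 without 300 min.

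Library by library, the median of the 55 genes relative to each gene's own early mean was 0.03 at 135 min, -0.17 at 150 min, -0.47 at 165 min, -1.19 at 180 min and -1.69 at 195 min. It was -2.94 at 225 min and stayed between -3.16 and -2.83 from 240 to 345 min in the deeper libraries, with -2.26 at 360 min. At 165 min all 55 genes were already below their early mean, by 0.22 to 0.91. The largest step between neighbouring deeper libraries was from 195 to 225 min for 43 genes, from 180 to 195 min for 7 and from 165 to 180 min for 5. The first of these intervals is 30 min long, because the 210 min library lists no small subunit gene among its 29 genes.

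**Figure D2:**
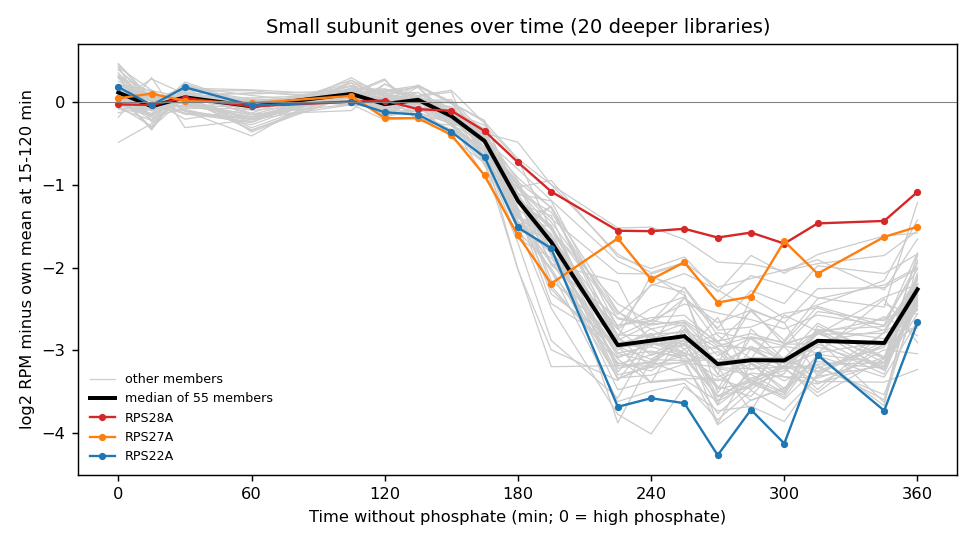
Log2 RPM of each of 55 small subunit genes minus its own mean at 15 to 120 min, against time without phosphate (min), in the 20 deeper libraries. The median (black) is at -0.47 at 165 min and -2.94 at 225 min, with RPS28A among the highest curves late, RPS27A falling ahead of the median and RPS22A near the lower edge.

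The minute at which a smooth curve of each gene passed the midpoint between its early and late means had a median of 191 min, and 50 of 55 genes lay within 10 min of it. Large subunit genes had a median of 188 min (75 genes), and the other genes called lower 172 min (195 genes). RPS27A had the earliest midpoint, 162 min, which lay between 157 and 169 min as single libraries were left out. RPS24B followed at 176 min, with 6 late values because it was not listed at 315 min, and 178 min was the time of RPS14B. Rps14 is known to repress splicing of the RPS14B transcript. The latest midpoints were those of RPS22B at 205 min and RPS9A at 201 min, and RPS18A and RPS30A were among those that followed at 199 min. RPS22B holds the small nucleolar RNA gene SNR44 within it, and reads of the host and guest gene cannot be told apart where counting ignores strand and exons, which is not given in the sources used here. The midpoint times are descriptions and carry no test, and they depend on the smooth curve. In the libraries themselves, RPS27A was still above its midpoint at 165 min (8.27 log2 RPM). RPS30A was already below its own at 195 min (9.88 log2 RPM).

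Among the 5 deepest falls were those of RPS22A, RPS26B, RPS16B and RPS7A. RPS22A, which encodes the conserved protein uS8, had 6.65, 7.20 and 8.26 log2 RPM as lowest, median and highest late values, against 10.89, 11.10, 10.88, 10.93 and 10.80 at 15, 30, 60, 105 and 120 min. Its late values lay 2.54 or more below its early ones. It was 12.1-fold lower late (log2 difference -3.60, SE 0.54, limma adjusted p = 7.09e-05), and it had 52.0 to 100.5 reads in the late libraries and 10918 at 0 min.

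RPS26B, which encodes a protein at the mRNA exit channel, had 5.93, 6.35 and 7.08 log2 RPM as lowest, median and highest late values, against 9.58, 9.86, 9.66, 10.06 and 9.80 early. Its log2 difference was -3.38 (SE 0.58, limma adjusted p = 0.000218). Its late values sat far below the early ones with no overlap. RPS16B, whose protein reaches the peptidyl site with its tail, had 6.46, 6.90 and 7.57 late, against 10.35, 10.34, 9.96, 10.42 and 10.40 early (log2 difference -3.32, SE 0.56, limma adjusted p = 0.000165). RPS7A had 6.41, 6.86 and 8.40 late, against 10.26, 10.37, 10.28, 10.36 and 10.26 early (log2 difference -3.24, SE 0.57, limma adjusted p = 0.000247). The highest late value of RPS7A was that of the 360 min library, apart from its other late values.

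The shallowest falls were those of RPS28A, RPS30A, RPS23A, RPS27A and RPS25A, all A paralogs. RPS28A, which encodes the small protein eS28 near the mRNA exit, had 9.86, 10.04 and 10.48 log2 RPM as lowest, median and highest late values, against 11.53, 11.62, 11.52, 11.57 and 11.59 early. The early values were close to each other, and the late ones lay below them without overlap. It was 2.81-fold lower late (log2 difference -1.49, SE 0.23, limma adjusted p = 2.01e-05).

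RPS30A had 8.84, 8.94 and 9.32 late, against 10.84, 10.99, 10.85, 11.00 and 10.70 early, and was 3.60-fold lower (SE 0.22 on the log2 scale, limma adjusted p = 1.56e-06). RPS23A, whose protein lies in the decoding centre, had 9.57, 10.01 and 10.28 late, against 11.65, 11.9985, 12.0025, 11.87 and 11.78 early, and was 3.66-fold lower (SE 0.28, limma adjusted p = 1.64e-05). Neither gene had a late value as high as any early one. RPS27A had 6.73, 7.22 and 7.65 late, against 9.26, 9.17, 9.14, 9.23 and 8.96 early, and was 3.84-fold lower (SE 0.29, limma adjusted p = 2.66e-05). RPS25A, whose protein is needed by several viral internal ribosome entry sites, had 9.58, 9.82 and 10.19 late, against 11.69, 12.06, 11.80, 11.87 and 11.80 early, and was 4.06-fold lower (SE 0.28, limma adjusted p = 1.02e-05). Of all 55 genes, 22 were more than 8-fold lower, and the 4 that were less than 4-fold lower are RPS28A, RPS30A, RPS23A and RPS27A.

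**Figure D3:**
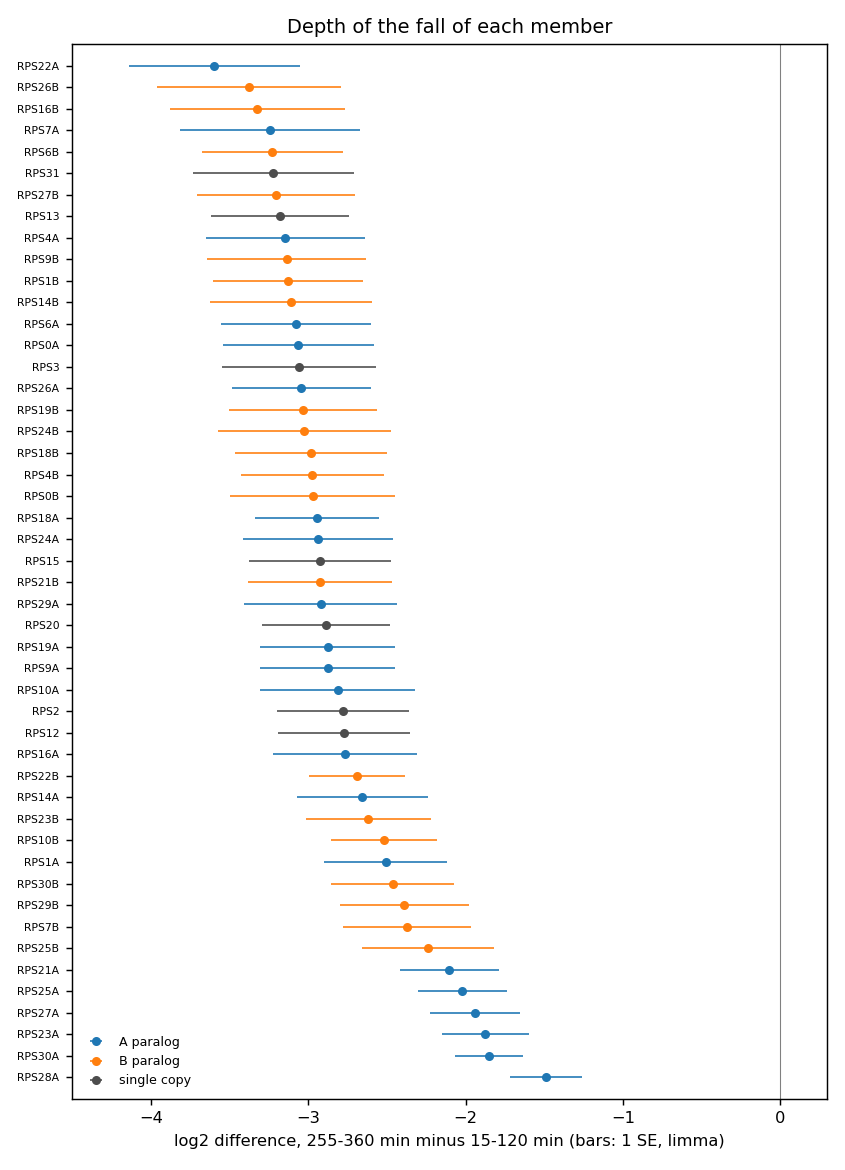
Log2 difference of 48 of the 55 tested small subunit genes, 255 to 360 min minus 15 to 120 min, with bars of 1 SE from limma, from the deepest fall at the top to the shallowest at the bottom, coloured by paralog. All points lie between -3.60 (RPS22A) and -1.49 (RPS28A), and the 6 genes at the bottom are A paralogs.

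The 8 single-copy genes, which have no A or B partner, changed by -3.22 to -2.77 on the log2 scale, with a median of -2.99. RPS31, which encodes the subunit protein eS31 fused to ubiquitin, had 9.17, 9.37 and 10.36 log2 RPM as lowest, median and highest late values, against 12.62, 13.00, 12.72, 12.81 and 12.62 early (log2 difference -3.22, SE 0.51, limma adjusted p = 9.46e-05). RPS13 had a difference of -3.18 (SE 0.44) and RPS3, at the mRNA entry channel, one of -3.06 (SE 0.49). The differences were -2.93 (SE 0.45) for RPS15, -2.89 (SE 0.41) for RPS20, -2.78 (SE 0.42) for RPS2 and -2.77 (SE 0.42) for RPS12. Late and early values overlapped in none of the 8, as in none of the 55 tested members, and the share among all genes was not counted. Per length of coding sequence at 0 min, RPS31 and RPS12 were among the highest of all members at 14731 and 13676 RPM per kb, and RPS20 among the lowest at 849 RPM per kb, while the median member had 4511. RPS20 had 10 reads, the listing limit, in the late libraries of 315 and 360 min.

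Grouped by structure, the genes had medians close to each other. The 36 genes with an intron had a median of -2.96 and the 19 tested genes without one -2.92. A paralogs had a median of -2.88 (24 genes) and B paralogs -2.98 (23 genes). Level at 0 min and change had Pearson r = -0.03 and Spearman rho = -0.05 across the 55 genes, which are not independent replicates and share their libraries. Coding length and change had r = -0.417 and Spearman rho = -0.411 over the 55 genes, and the 9 genes under 300 bases had a median of -2.39 against -2.97 for the 46 longer ones. Over 76 large subunit genes the same r was 0.02, and over 4184 genes outside the ribosomal proteins it was -0.03. The 9 large subunit genes under 300 bases had a median of -2.64 against -2.84 for the 67 longer ones. Outside the ribosomal proteins the medians were 0.44 for 135 shorter genes and 0.41 for 4049 longer ones. With the reads of both paralogs added, the 32 proteins ran from -1.49 for RPS28 to -3.24 for RPS22, with a median of -2.93.

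Other components of the ribosome stood as follows in the same comparison of late with early, in which 6.97% of all genes were called lower. Of 76 large subunit genes, 75 were lower, with a median of -2.83, and of the 5 genes for P0 and the stalk proteins 5 were lower, with a median of -2.94. ASC1, whose protein binds the small subunit and acts in quality control, was lower by a log2 difference of -3.30, and STM1, a protein that clamps idle ribosomes, by -2.10. Of 28 tested assembly factors of the small subunit, which process its RNA and do not stay in the mature ribosome, 3 were lower and 0 higher. The 3 were EMG1 at -0.77, KRR1 at -0.74 and DIM1 at -0.69. The share called lower was not far from that of all genes, but the list lay lower as a whole. Its median was -0.28 against 0.41 for all genes, and 22 of 28 differences were negative, against 1078 of 4733.

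The balance within A and B pairs was taken as log2(A/B) in each library, which does not depend on how libraries are scaled. At 0 min the A gene was higher in 13 pairs and the B gene in 11, and 11 of the 24 were more than 2-fold apart. The most unequal pair was RPS28, where log2(A/B) was 7.14 and RPS28A had 14611 RPM per kb of coding sequence against 104 for RPS28B. RPS28B was the only member that could not be tested: it was listed in 8 of the 20 deeper libraries and in none after 180 min, with 105 reads at 0 min and 11 at 180 min. Its messenger RNA is known in yeast for a decay route that Rps28 itself promotes. RPS14 followed with log2(A/B) of 3.27, RPS9 with -2.87 and RPS22 with 1.88.

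The values of many paralogs carry what may be a trace of shared reads. With the lowest listed value of a library taken as 10 reads, 154 of 160 values of the single-copy genes were whole reads within 0.05, and the other 6 were all of RPS31, whose ubiquitin part has near copies in other genes, so its reads may be shared too. In 22 of the 24 pairs at least 1 gene had a value that was not whole in some deeper library, 374 cases in all, and in 367 of these the sum of A and B was whole. RPS27 and RPS28 were whole in both genes in every library that listed both. Fractions that add up to whole reads are what dividing a read between both copies would leave, but the counting rule is not given in the sources used here, and the fractions do not show how many reads were divided. The coding sequences of the pairs were 84.3% to 99.2% identical. RPS6, RPS4 and RPS24 share 72.1%, 46.8% and 38.2% of their 50-base windows with their paralog, so their separate A and B values are uncertain.

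From early to late, 10 of 23 tested pairs changed their ratio by limma over all 60 A/B pairs of the table (43.5%), while 43.3% of the 60 and 16 of the 37 other pairs were called. The share among small subunit pairs was therefore close to that of the other pairs. Apart from COX5 and NHP6, those 37 are pairs of ribosomal protein genes as well. No background of paralogs in general can be read from them. The ratio moved towards A in 7 of the 10 and towards B in 3, and in all 23 pairs together the B gene had the larger fall in 16. The direction in the 37 other pairs was not counted. The median size of the change was 0.33 on the log2 scale.

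RPS27, which encodes the zinc-binding protein eS27, changed most. Its log2(A/B) had -0.63, -0.23 and 0.44 as lowest, median and highest late values, against -1.27, -1.53, -1.39, -1.37 and -1.53 early, so RPS27B was the higher copy early and both were about level late. The change was 1.26 (SE 0.28, limma adjusted p = 0.000917). RPS27A was 3.84-fold lower late and RPS27B 9.22-fold, and 34 to 107 reads of RPS27A and 48 to 96 of RPS27B stood behind each late value. The ratio was still -1.62, -1.64, -1.82, -1.60 and -1.56 at 135, 150, 165, 180 and 195 min, and 0.04 at 225 min and -0.17 at 240 min.

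RPS22 moved the other way. Its log2(A/B) had -0.34, 0.59 and 0.93 as lowest, median and highest late values, against 1.44, 1.33, 1.21, 1.08 and 1.00 early. The highest late value was just below the lowest early one. The ratio was 1.88 at 0 min and fell from each early library to the next, so the early window was not a steady level. RPS22B holds SNR44, so the limit given for its midpoint holds for this ratio too. The change was -0.91 (SE 0.27, limma adjusted p = 0.00922), and it was -1.46 where both genes had to have at least 50 reads. Late values of this ratio were widely spread (SD 0.53, n = 7), with a mean of -0.04 in hour 5 and 0.76 in hour 6.

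RPS7, which encodes a protein on the body of the subunit, had log2(A/B) of -0.69, 0.04 and 0.34 as lowest, median and highest late values, against 0.72, 0.91, 0.94, 0.72 and 0.82 early. The change was -0.87 (SE 0.23, limma adjusted p = 0.00244), and RPS7A, early the higher copy, was about level with RPS7B late. With the 5 shallow libraries included the change was -0.57 and the adjusted p 0.0659, so that call was lost. RPS21, which encodes the small protein eS21, had -0.51, -0.08 and 0.01 as lowest, median and highest late values, against -0.90, -0.91, -1.003, -0.89 and -1.13 early. Its change was 0.82 (SE 0.18, limma adjusted p = 0.00046), with RPS21B the higher copy in every early library and both nearly level in most late ones.

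**Figure D4:**
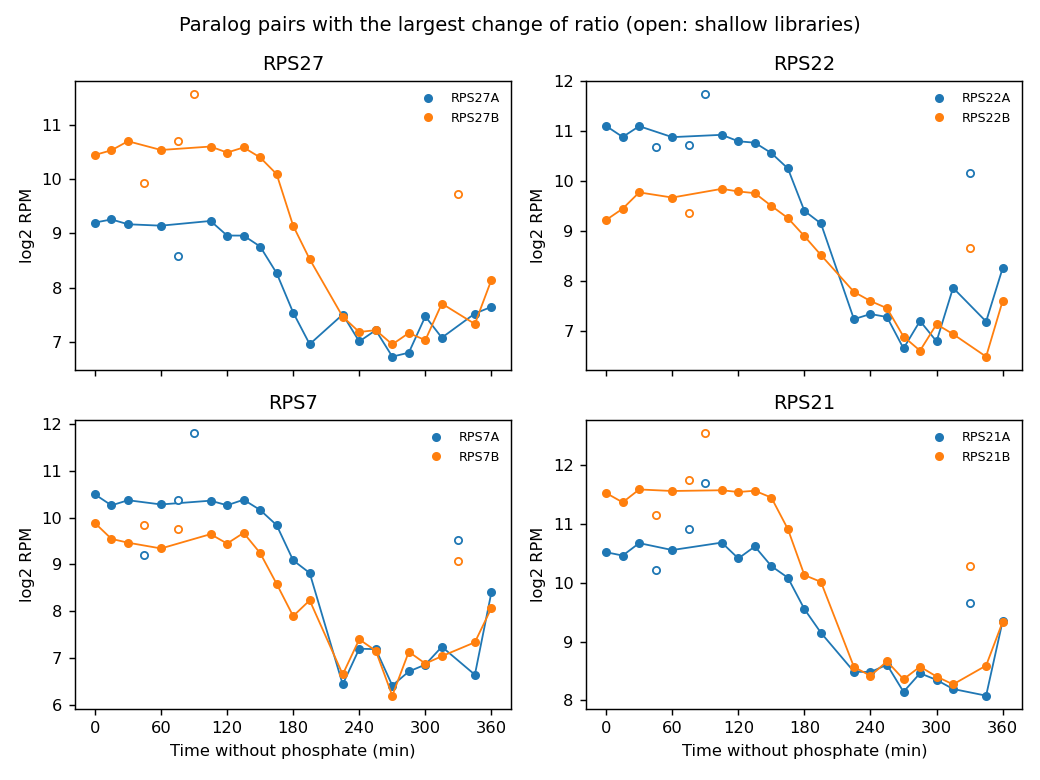
Log2 RPM of both paralogs of RPS27, RPS22, RPS7 and RPS21 against time without phosphate (min), with filled points for deeper and open points for shallow libraries. The copies are apart in the deeper libraries to 120 min, with RPS27B, RPS22A, RPS7A and RPS21B the higher ones. In those from 255 min on, log2(A/B) lies between -0.63 and 0.44 for RPS27 and between -0.34 and 0.93 for RPS22. It lies between -0.69 and 0.34 for RPS7 and between -0.51 and 0.01 for RPS21.

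Other pairs called were RPS23 at 0.74, RPS1 at 0.62, RPS30 at 0.61, RPS16 at 0.56 and RPS29 at -0.53 on the log2 scale. RPS30 lost its call with all 25 libraries, at 0.42 and an adjusted p of 0.109. In RPS16 the late and early values overlap. In RPS1, RPS7, RPS23, RPS29 and RPS30 the mean ratio lay on the other side of equal levels late than early. RPS18 had one of the 2 smallest changes, at 0.04 (SE 0.17). Of the most unequal pairs, RPS14 changed by 0.45 (SE 0.26, limma adjusted p = 0.176) and RPS9 by 0.26 (SE 0.23, limma adjusted p = 0.391), so neither passed the threshold, and RPS14 was called, at an adjusted p of 0.0061, when the early and late libraries alone were fitted.

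**Figure D5:**
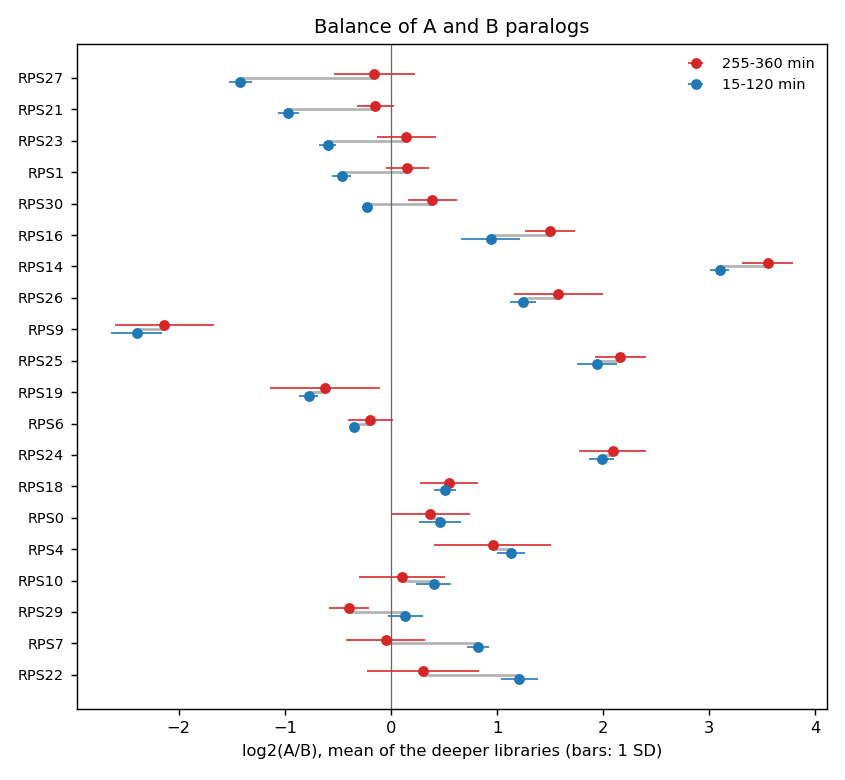
Mean log2(A/B) of 20 of the 23 tested pairs in the deeper libraries of 255 to 360 min (red) and of 15 to 120 min (blue), with bars of 1 SD, ordered from the largest change towards A at the top to the largest towards B at the bottom. RPS27 is at -0.15 late and -1.42 early, and RPS22 at 0.30 late and 1.21 early.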

How the data were processed

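The deposited table holds log2 values, made by the authors as log2 RPM over the genes with at least 10 reads in a library, as the values themselves show: each library sums to 1000000 RPM and its lowest value is shared by several genes. Reads were aligned with Bowtie to R64, per the submitters' processing notes. No version, counter, use of strand or read length is given in the sources used here. The labels give no batch. Of 6701 rows, 51 without a name were left out. The members, lists, windows, depth limit and tests were chosen with earlier results of these data known.

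The tests used limma 3.58.1 (R 4.3.3) on the log2 values as deposited, with a mean for 0 min and for each window or hour over the 20 libraries of at least 100000 listed reads, a variance trend and robust moderation, and p-values adjusted by Benjamini-Hochberg over all genes tested (threshold 0.05). Unlisted values were left out, and a gene needed a mean of 10 RPM and 3 values in each window (2 in each hour). Pair ratios were fitted likewise over all A/B pairs of the table. Midpoints came from a natural cubic spline (5 degrees of freedom) fitted to the deeper libraries without phosphate. The scripts were tested on simulated data. Promoters, coding lengths and identities were read from the R64 genome with Python 3.11.15 and Biopython 1.88.

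Read numbers take the lowest listed value as 10 reads, and intervals cover counting error only. Named are the 5 deepest and 5 shallowest falls, the single-copy genes, the 4 largest and 2 smallest changes of ratio, the 4 most unequal pairs at 0 min, the 3 earliest and 3 latest midpoints with ties, and the untested gene; a few of these enter the counts but are not reported here. The check of values that are not whole reads was added after seeing the data.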

Additional observations from a re-analysis of the deposited data

Results flagged for a closer look

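Each of these values stood apart from the other libraries of its own window by Dixon's criterion, which was met in 15 of 142 groups tested, where chance gives about 1 in 20. The share of listed reads taken by small subunit genes was 17.1% at 90 min, where the next highest early library had 12.8%. It was 6.02% at 330 min, where the next highest late library had 2.72%. Both are shallow libraries that list only their highest genes and enter no test.

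The 330 min library differed from its neighbours beyond its listing limit. It lists 47 small subunit genes, and of the 16 whose levels at 315 and 345 min were both above its limit, all 16 were higher at 330 min than the mean of those libraries, by 0.60 to 2.38 log2 units with a median of 1.65. Of 396 other genes above that limit in both neighbours, 365 were listed at 330 min, with a median of 0.35. The part of depth in this was not tested.

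The 360 min library, the shallowest of those tested with 169769 listed reads, had a small subunit share of 2.72% against 1.90% in the next highest deeper late library. It was also high among late values for RPS0A (8.42 log2 RPM), RPS1A (9.59), RPS21A (9.35), RPS21B (9.33), RPS23B (10.64), RPS24A (9.23) and RPS7A (8.40), which are 7 of the 11 levels that stood apart. Without it all 55 genes were still lower late than early.

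Among early libraries, 15 min was low for RPS13 (10.78 log2 RPM) and RPS21B (11.37), and 60 min for RPS16B (9.96) and RPS19B (10.50). The log2(A/B) of RPS4 was -0.15 at 270 min, where the nearest late value was 0.88.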

How the results depend on the processing

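All 55 genes stayed lower late than early under each of 26 alternatives, 19 of which left out 1 library, with adjusted p of 0.00145 or less by limma. The members' median was -3.34 with median centring and -3.41 with scaling to reads outside the ribosomal proteins, while the median of all genes was 0.41 as deposited, 0.02 with median centring and -0.06 with that scaling. The count lower in the middle window than early, 18, was 36 with all 25 libraries, 5 with median centring, 3 with scaling outside the ribosomal proteins, 5 with unlisted values at the listing limit, 47 without variance trend and robust moderation, and 1 to 55 with 1 library left out. The count lower late than in the middle, 44, was 26 with all 25 libraries and 12 to 54 with 1 left out. The hour 3 against hour 2 count was 0 to 1 and the hour 4 against hour 3 count 54 to 55 with 1 left out; the number of pairs called stayed at 10 in 12 such fits, and the median midpoint was 189 to 193 min. The cause of these shifts was not tested.

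Of 336 results for single pairs, 325 kept direction and side of the threshold. With all 25 libraries, RPS7 (-0.57) and RPS30 (0.42) lost their calls, and RPS14 (0.45) gained one with the early and late libraries alone. The sign turned in uncalled pairs: with all 25 libraries RPS0 (0.30), RPS6 (-0.16), RPS9 (-0.15), RPS24 (-0.12) and RPS18 (-0.049), and with 1 library left out RPS18 (-0.013 to 0.12) and RPS4 (-0.26 to 0.013). No paired analysis was possible because each time point is 1 library and the labels give no replicate numbers. Late values rest on as few as 10 reads in RPS20.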
